A study of Mus musculus with 6 samples.

Results

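Integrins, the dystrophin-glycoprotein complex and the proteins of focal adhesions, which together couple heart cells to the ECM, were described through 33 genes given by name, of which 32 could be measured among 19505 genes with a symbol on the array. The gene of focal adhesion kinase, *Ptk2*, is the member with no probe set under its symbol, and its level was not analysed here. The genes were chosen as integrin chains other than the collagen-binding ones, components of the dystrophin-glycoprotein complex and focal adhesion proteins, and each measured member had a single probe set. RNA came from hearts of 3 *Col1a2*-/- mice and 3 *Col1a2*+/- controls of the C57/BL6 background at 2 months of age, and each heart was hybridized to its own Affymetrix Clariom S Mouse array. The tissue is whole heart by the labels and whole ventricles by the methods, and the labels give no sex. The mice carry a germline knockout-first allele, in which a large cassette is inserted into *Col1a2* in every cell, on both copies in *Col1a2*-/- mice and on 1 copy in the *Col1a2*+/- controls. No wild-type heart was analysed here, and a cassette of this kind can alter neighboring genes. The values are log2 signals, so that a difference of 1 is a doubling.

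Integrins are pairs of an α and a β chain that bind matrix proteins outside the cell and, through talin and kindlin, the actin cytoskeleton inside it. The α chain largely sets the ligand: α3, α6 and α7 pair to bind laminins, α5, α8 and αv bind proteins with an RGD sequence such as fibronectin and vitronectin, and α4 and α9 bind fibronectin variants, tenascin-C, osteopontin and VCAM-1. In cardiomyocytes a second link runs from laminin to dystroglycan, the sarcoglycans and dystrophin, and its loss causes muscular dystrophy with cardiomyopathy. Focal adhesions, and the costameres of muscle, hold the adaptors that join these receptors to actin and carry signals from them.

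Most of these genes differed little between the genotypes. In limma, 2 of the 32 members (*Itga6* and *Itga9*) were higher in *Col1a2*-/- hearts with an unadjusted p under 0.05, 1 (*Sgca*) was lower and 29 did not pass. Over all 22206 probe sets tested, 2.67% were higher and 2.79% lower at the same limit, 5.45% in all. The calls among the 32 members are too few to set their share apart from this background. No member passed an adjusted p under 0.05 (adjusted p from 0.879 to 1.00), which 1 probe set, that of *Col1a2*, did in all (0.00450%). The median log2 difference of the members, *Col1a2*-/- minus *Col1a2*+/-, was 0.07, against 0.00 over all probe sets, and 20 had a positive and 12 a negative difference. This median was 0.04 with the animal-number series described below as a block, and 0.04 to 0.11 with each heart left out, lowest without *Col1a2*-/- heart 2767 and highest without *Col1a2*-/- heart 3200. The 95% confidence interval of the difference lay within a 2-fold change in either direction for all 29 members that did not pass, and within a 1.5-fold change for 22 of them.

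**Figure D1:**
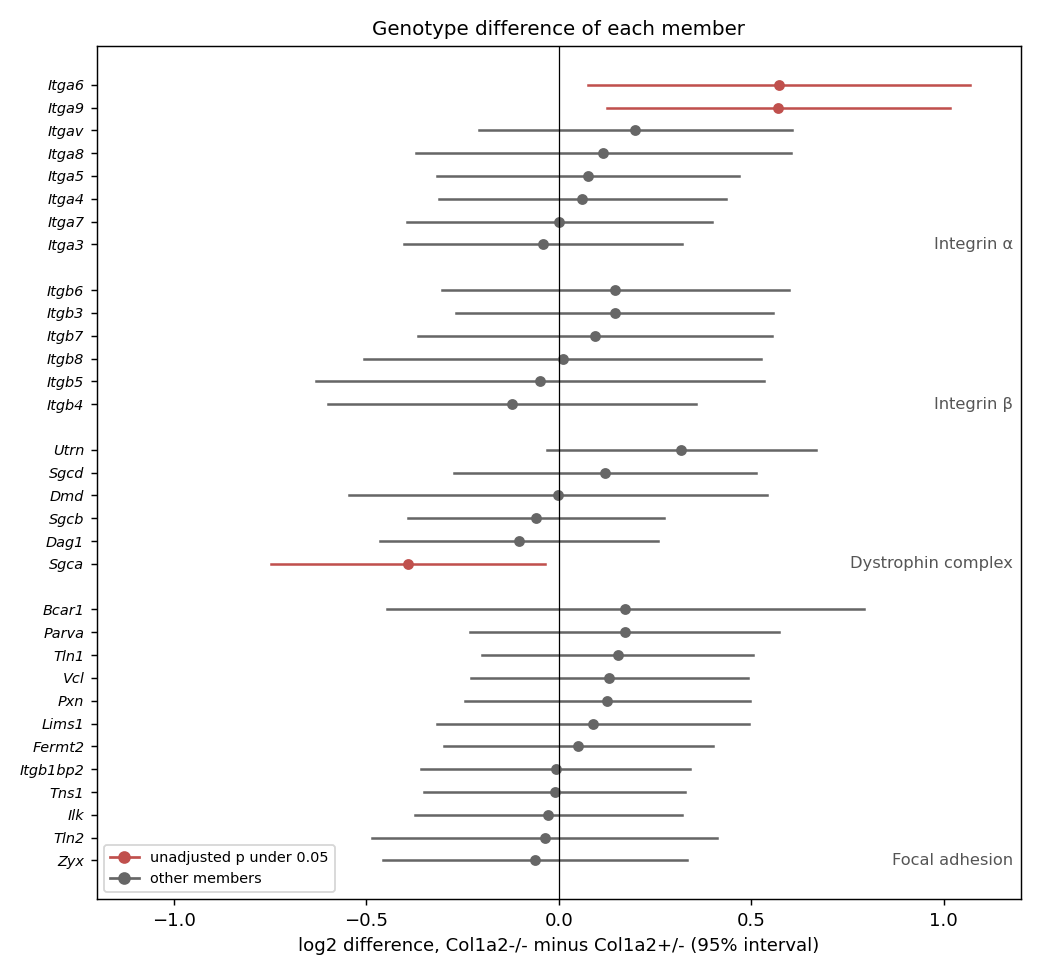
Log2 difference between *Col1a2*-/- and *Col1a2*+/- hearts (horizontal axis) of each of the 32 members, with the 95% confidence interval from limma as a line and the 3 members with an unadjusted p under 0.05 in red. The intervals of *Itga6* and *Itga9* lie above 0 and that of *Sgca* lies below it, and all others cross 0.

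The targeted gene was checked first. Its log2 signal was 9.47, 9.06 and 9.18 in *Col1a2*+/- hearts 2769, 3201 and 3294, and 6.86, 6.84 and 6.48 in *Col1a2*-/- hearts 2767, 2770 and 3200, a difference of -2.51 (adjusted p = 0.00626 from limma). The adjusted p was 0.0948 when *Col1a2*+/- heart 3294 was left out and 0.0562 when *Col1a2*-/- heart 2770 was. All 9 markers of ventricular myocytes lay above the limit for dim signals, a log2 signal of 5.99 set from 1465 chemoreceptor probe sets, while 6 of 7 skeletal muscle markers lay under it. *Col1a2*+/- heart 3294 stood apart. The summed level of its 6 atrial markers was 18.88 on the log2 scale, against 16.02 to 17.66 in the other hearts. Its atrial growth factor *Bmp10* had 13.89 against 3.53 to 5.35. *Myl7*, *Myl4*, *Nppa*, *Sln* and *Stard10* were also higher in each *Col1a2*-/- heart than in *Col1a2*+/- hearts 2769 and 3201, while *Bmp10* overlapped. The Y-linked *Uty* had 2.65 in heart 3294 and 11.58 to 11.90 elsewhere. *Ucp1*, a gene of brown fat, had 8.33 in heart 3294 and 3.60 to 4.30 elsewhere. By *Uty* alone, heart 3294 reads as female and the other hearts as male, so only the *Col1a2*+/- group mixed the sexes. By their numbers, the animals form a series of 2767, 2769 and 2770 and a series of 3200, 3201 and 3294, both with hearts of each genotype, and the labels do not say what a series stands for. The counts, the medians and the members given per heart were also followed without heart 3294. So were the pathway genes with an unadjusted p under 0.05. The main shifts, and the main ones with the series as a block, are given below. Other members were not followed singly without that heart. In RNA from whole tissue, fewer cells of a type and less RNA per cell cannot be told apart.

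**Figure D2:**
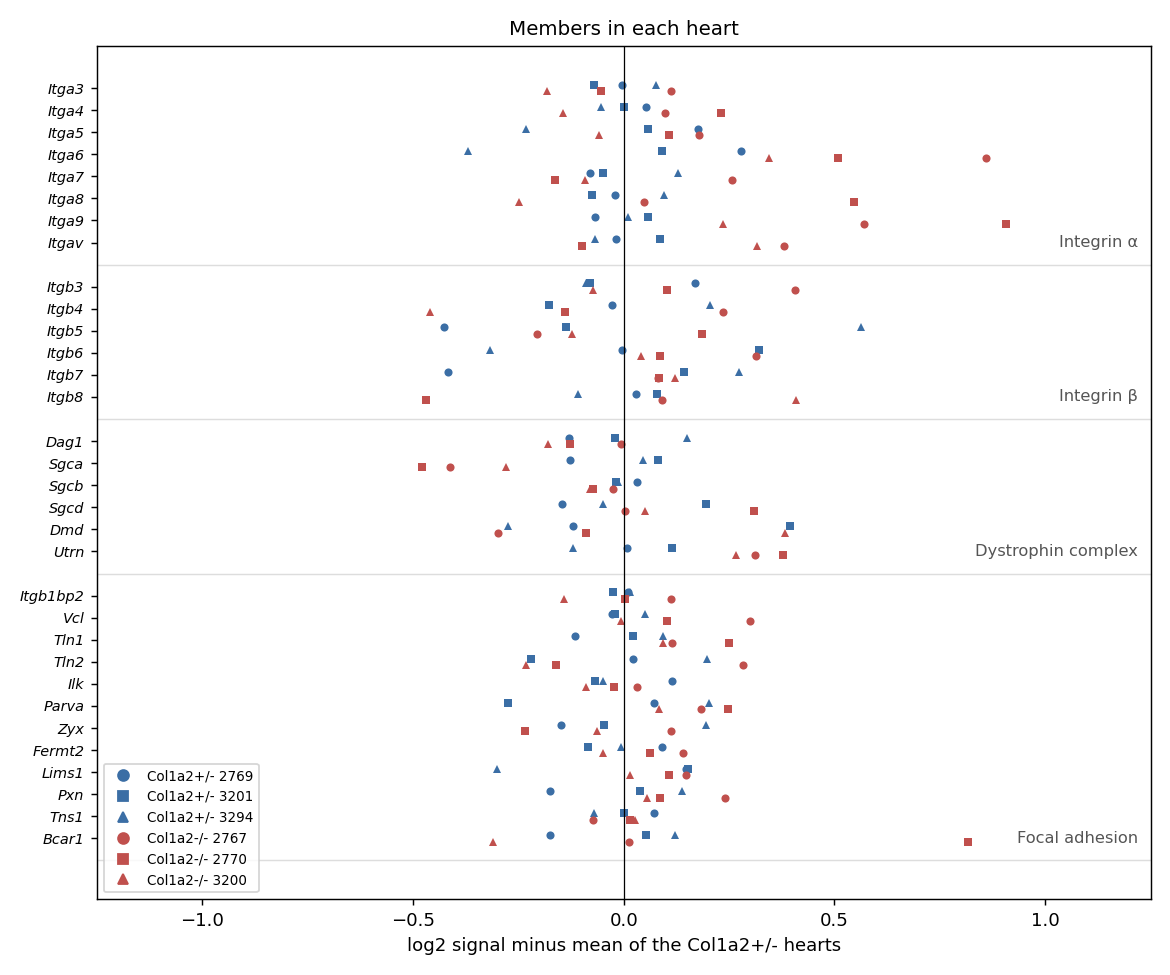
Log2 signal of each member in each of the 6 hearts, as the difference from the mean of the 3 *Col1a2*+/- hearts (horizontal axis), with *Col1a2*+/- hearts in blue and *Col1a2*-/- hearts in red and a symbol for each animal. The hearts of the genotypes are apart for *Itga6*, *Itga9*, *Utrn* and *Sgca*, and by under 0.01 for *Sgcb* and *Tln1*, and they overlap in all other members.

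Of the 8 integrin α chains, 2 were higher at an unadjusted p under 0.05 and 6 did not pass, with a median log2 difference of 0.10. Over all probe sets, 2.67% were higher and 2.79% lower at this limit. The median was 0.014 with the series as a block and 0.15 without *Col1a2*-/- heart 3200. *Itga6* encodes the α6 chain, a laminin receptor that pairs with β1, and with β4 in hemidesmosomes. Its log2 signal was 12.48, 12.13 and 11.96 in *Col1a2*-/- hearts 2767, 2770 and 3200, and 11.90, 11.71 and 11.25 in *Col1a2*+/- hearts 2769, 3201 and 3294. Each *Col1a2*-/- heart was above each *Col1a2*+/- heart, with the lowest and the highest 0.07 apart and with heart 3294 lowest. The means were 12.19 ± 0.26 and 11.62 ± 0.33 (SD, n = 3 each), a log2 difference of 0.57 (SE 0.22, unadjusted p = 0.0284, adjusted p = 0.906 from limma). The difference was 0.39 without *Col1a2*+/- heart 3294 (unadjusted p = 0.102 from limma) and 0.43 without *Col1a2*-/- heart 2767 (unadjusted p = 0.105 from limma), and 0.45 with the series as a block (unadjusted p = 0.0619 from limma). It was 0.41 within the first series of animal numbers and 0.48 within the second.

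*Itga9* encodes the α9 chain, a partner of β1 that binds tenascin-C and osteopontin and is found on smooth muscle and lymphatic endothelium among other cells. Its log2 signal was 11.56, 11.90 and 11.23 in *Col1a2*-/- hearts 2767, 2770 and 3200 and 10.93, 11.05 and 11.005 in *Col1a2*+/- hearts 2769, 3201 and 3294. The *Col1a2*+/- hearts lay close together, and all *Col1a2*-/- hearts lay above them with a wider spread. The means were 11.56 ± 0.34 and 10.99 ± 0.06 (SD, n = 3 each), a fold change of 1.49 (95% interval of the log2 difference 0.13 to 1.02, unadjusted p = 0.0176, adjusted p = 0.879 from limma). The log2 difference was 0.81 within the first series and 0.20 within the second, and 0.50 with the series as a block (unadjusted p = 0.0414 from limma). Without *Col1a2*-/- heart 2770, the highest of the hearts, it was 0.40 (unadjusted p = 0.0717 from limma). For both genes the exact two-sided permutation test over the hearts gives p = 0.1, the smallest p that 3 hearts against 3 allow.

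Both α chains are also known from vessels, so the markers of vessel cells stand beside them. The summed log2 level of 7 endothelial markers was 17.31 to 17.57 in *Col1a2*-/- hearts and 16.99 to 17.49 in *Col1a2*+/- hearts. Heart 3294 was lowest, and none of the 7 passed an unadjusted p under 0.05. The brightest marker, *Fabp4*, weighs most in this sum and had a log2 difference of 0.05. The median of the 7 differences was 0.16, from -0.05 (*Emcn*, the only negative one) to 0.32 (*Cdh5*). *Cdh5* alone was higher in each *Col1a2*-/- heart than in each *Col1a2*+/- heart, with the nearest 0.01 apart. Its hearts ranked in the order of *Itga6*, but not in that of *Itga9*, and this was seen after the values were. None of the other endothelial markers had the order of *Itga6*. *Pecam1* was highest in *Col1a2*-/- heart 3200 (12.70), *Tek* in *Col1a2*+/- heart 2769 (11.44) and *Emcn* in *Col1a2*+/- heart 3201 (12.78). For 8 markers of pericytes and smooth muscle the summed level was 16.65 to 16.71 and 16.66 to 16.81. *Rgs5* and *Abcc9*, the brightest, weigh most in this sum. Of the 8, 1 was higher (*Notch3*, a log2 difference of 0.53) and 7 did not pass. The shares over all probe sets were 2.67% higher and 2.79% lower. *Acta2* had a log2 difference of -0.54 (unadjusted p = 0.0776 from limma). The part of vessel cells in the values of *Itga6* and *Itga9* was not tested. *Itgb1*, the gene of the β1 chain that both α chains pair with, is not among the members. It had a log2 signal of 15.91 ± 0.10 in *Col1a2*-/- and 15.74 ± 0.20 in *Col1a2*+/- hearts (SD, n = 3 each), a difference of 0.17 with a 95% interval from -0.22 to 0.55, and was named here after its values were seen.

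The other α chains spanned log2 differences from -0.04 to 0.20, and the hearts overlapped in each of the 6. The laminin receptor chain of muscle, *Itga7*, had a log2 difference of 0.00 (95% interval -0.40 to 0.40), and *Itga3*, a laminin receptor chain of epithelia, had -0.04. Among chains that bind RGD proteins, *Itgav* had 0.20 (95% interval -0.21 to 0.61), the fibronectin receptor chain *Itga5* had 0.08 and *Itga8*, a chain of mesenchymal cells, had 0.12. *Itga8* was highest in *Col1a2*-/- heart 2770 at a log2 signal of 7.67 and lowest in *Col1a2*-/- heart 3200 at 6.87, on either side of all *Col1a2*+/- hearts. *Itga4*, the leukocyte chain that binds VCAM-1, had a log2 difference of 0.06.

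**Figure D3:**
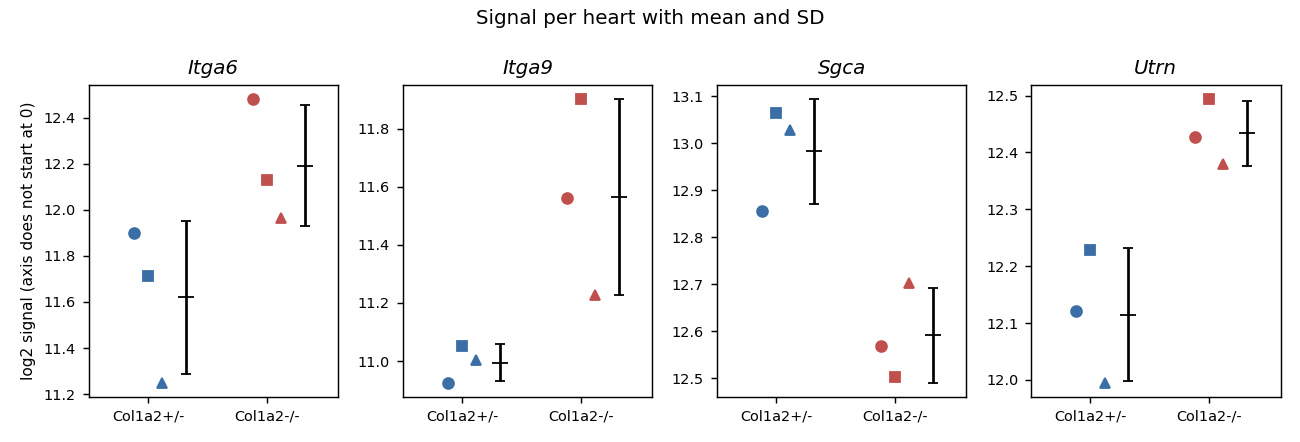
Log2 signal of *Itga6*, *Itga9*, *Sgca* and *Utrn* in each heart (vertical axes, each with its own range and not starting at 0), with *Col1a2*+/- hearts in blue, *Col1a2*-/- hearts in red, and the mean and SD of 3 hearts in black. *Itga6*, *Itga9* and *Utrn* are higher in every *Col1a2*-/- heart, and *Sgca* is lower.

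None of the 6 integrin β chains passed an unadjusted p under 0.05, and their hearts overlapped in each. Their log2 differences spanned -0.12 to 0.15, with a median of 0.05, which became -0.04 if *Col1a2*+/- heart 2769 was left out, 0.02 if *Col1a2*-/- heart 2767 was and 0.13 if *Col1a2*-/- heart 2770 was. *Itgb3*, the chain of the platelet and vitronectin receptors, had a log2 signal of 6.64, 6.34 and 6.16 in *Col1a2*-/- hearts 2767, 2770 and 3200 and 6.40, 6.15 and 6.14 in *Col1a2*+/- hearts 2769, 3201 and 3294. Its difference of 0.15 has a 95% interval from -0.27 to 0.56, and was 0.02 without *Col1a2*-/- heart 2767 and 0.25 without *Col1a2*-/- heart 3200. *Itgb6*, known as an epithelial chain that activates latent TGFβ with αv, had 10.46, 10.24 and 10.19 in *Col1a2*-/- hearts and 10.15, 10.47 and 9.83 in *Col1a2*+/- hearts in the same order. Its lowest value was that of heart 3294, and its log2 difference of 0.15 became -0.01 without that heart. *Itgb5*, another partner of αv, was highest in heart 3294, where it reached 10.77 while the rest lay between 9.78 and 10.39, and had a difference of -0.05. Its *Col1a2*-/- mean of 10.16 lay above the other *Col1a2*+/- hearts, at 9.78 and 10.07, so the sign rests on heart 3294. *Itgb7*, a chain of lymphocytes, had 8.84 in *Col1a2*+/- heart 2769 and 9.34 to 9.53 in all other hearts. *Itgb8*, a further chain of receptors for latent TGFβ, had a difference of 0.01, with the highest and the lowest value both in *Col1a2*-/- hearts, at 6.62 and 5.75. *Itgb4*, the partner of α6 in epithelial hemidesmosomes, was the only member with a mean under the dim limit, and its log2 difference was -0.12 (95% interval -0.60 to 0.36).

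In the dystrophin-glycoprotein complex, 1 of 6 members was lower at an unadjusted p under 0.05, none was higher and 5 did not pass, with a median log2 difference of -0.03. Over all probe sets, 2.79% were lower and 2.67% higher at this limit. The median was 0.03 with the series as a block, and leaving out *Col1a2*+/- heart 3201, *Col1a2*-/- heart 2767 or *Col1a2*-/- heart 3200 gave 0.06, 0.04 and -0.06. The member that was lower is *Sgca*, the gene of α-sarcoglycan, a subunit made in striated muscle whose loss causes a limb-girdle muscular dystrophy. Its partner β-sarcoglycan, from *Sgcb*, is also made outside muscle and had a log2 difference of -0.06. The 250 bases before the RefSeq start of each gene are shown because these are the 2 members of the list that lay lower in every *Col1a2*-/- heart. They are written 5′ to 3′ on the coding strand from RefSeq (build GRCm38.p6), chr11:94976328-94976577 and chr5:73647738-73647987, both on the minus strand, with E-boxes in capitals.
Sgca: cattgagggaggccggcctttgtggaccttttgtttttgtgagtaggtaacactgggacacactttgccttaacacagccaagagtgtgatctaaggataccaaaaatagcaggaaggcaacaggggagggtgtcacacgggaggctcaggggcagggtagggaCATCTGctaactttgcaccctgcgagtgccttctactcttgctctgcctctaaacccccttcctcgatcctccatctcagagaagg
Sgcb: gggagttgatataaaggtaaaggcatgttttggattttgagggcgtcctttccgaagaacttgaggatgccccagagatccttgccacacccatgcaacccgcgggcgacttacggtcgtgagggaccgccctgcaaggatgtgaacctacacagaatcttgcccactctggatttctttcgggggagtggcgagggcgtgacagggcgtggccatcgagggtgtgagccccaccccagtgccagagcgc
An E-box (CANNTG, the same on both strands) is the element that basic helix-loop-helix factors bind. The *Sgca* window holds 1 and the *Sgcb* window 0, and 66.2% of 32851 RefSeq windows of this length hold at least 1. The *Sgca* window holds 4 CpG dinucleotides and no GC box (GGGCGG on either strand, found in 32.7% of windows, with no overlap with the E-box), and the *Sgcb* window holds 14 and 1. The median window holds 6 CpG dinucleotides. These are matches of letters and were not tested as sites.

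*Sgca* had a log2 signal of 12.57, 12.50 and 12.70 in *Col1a2*-/- hearts 2767, 2770 and 3200 and 12.86, 13.06 and 13.03 in *Col1a2*+/- hearts 2769, 3201 and 3294. The *Col1a2*-/- hearts were all below the *Col1a2*+/- hearts, with 0.15 between the nearest, and heart 3294 was not at an end. The means were 12.59 ± 0.10 and 12.98 ± 0.11 (SD, n = 3 each), a fold change of 0.763 (SE of the log2 difference 0.16, unadjusted p = 0.0348, adjusted p = 0.906 from limma). The log2 difference was -0.32 and -0.34 within the first and the second series and -0.33 with the series as a block (unadjusted p = 0.0774 from limma). Leaving out 1 heart gave -0.45 to -0.35. It missed the limit of 0.05 without *Col1a2*+/- heart 3201 or 3294, or *Col1a2*-/- heart 2767 or 2770 (-0.35, -0.37, -0.38 and -0.35, unadjusted p = 0.0695 to 0.0987 from limma).

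*Sgcb* had a log2 signal of 14.03, 13.99 and 13.98 in *Col1a2*-/- hearts and 14.09, 14.04 and 14.04 in *Col1a2*+/- hearts. These groups did not overlap either, but the difference was -0.06 (95% interval -0.39 to 0.27, unadjusted p = 0.696 from limma). *Sgcd*, which encodes δ-sarcoglycan, had a difference of 0.12 (95% interval -0.27 to 0.51). *Dag1*, whose product is cut into the laminin-binding α-dystroglycan and the membrane-spanning β-dystroglycan, had -0.10 (95% interval -0.47 to 0.26). *Dmd*, the gene of dystrophin itself, had a mean log2 signal of 9.71 in both genotypes and a difference of 0.00 (95% interval -0.54 to 0.54).

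*Utrn* encodes utrophin, a dystrophin-like protein that can stand in for dystrophin in muscle and is otherwise found at neuromuscular junctions and in vessel walls. Its log2 signal was 12.43, 12.49 and 12.38 in *Col1a2*-/- hearts 2767, 2770 and 3200 and 12.12, 12.23 and 11.995 in *Col1a2*+/- hearts 2769, 3201 and 3294. Every *Col1a2*-/- heart was above every *Col1a2*+/- heart by at least 0.15. The means were 12.43 ± 0.06 and 12.11 ± 0.12 (SD, n = 3 each), a log2 difference of 0.32 (95% interval -0.03 to 0.67, unadjusted p = 0.0693, adjusted p = 0.910 from limma). It was 0.34 within the first and 0.27 within the second series. It passed the limit of 0.05 under 3 alternatives: the filter on dim probe sets (unadjusted p = 0.0455 from limma), a trended robust prior (unadjusted p = 0.0260 from limma) and an unmoderated test of each probe set. It missed the limit under all the others. With the series as a block it was 0.30 (unadjusted p = 0.114 from limma). Leaving out each of the 6 hearts gave 0.26 to 0.38 (unadjusted p = 0.0702 to 0.156 from limma).

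**Figure D4:**
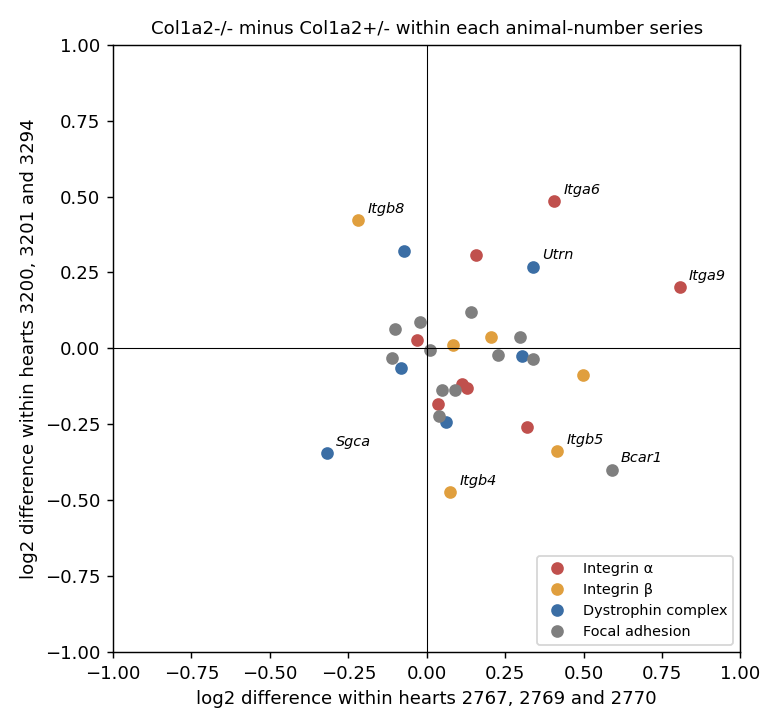
Log2 difference between *Col1a2*-/- and *Col1a2*+/- hearts within hearts 2767, 2769 and 2770 (horizontal axis) and within hearts 3200, 3201 and 3294 (vertical axis), 1 point per member, colored by role. *Itga6*, *Itga9* and *Utrn* lie to the upper right and *Sgca* to the lower left, while *Bcar1* and *Itgb5* are positive in one series and negative in the other.

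None of the 12 measured focal adhesion and integrin-binding genes passed an unadjusted p under 0.05, and their log2 differences spanned -0.06 to 0.17 with a median of 0.07. The median was 0.02 with the series as a block and with *Col1a2*+/- heart 3201 left out, and 0.11 without *Col1a2*-/- heart 3200. *Tln1* encodes talin-1, which binds the β tail and activates integrins. It had 14.37, 14.50 and 14.35 in *Col1a2*-/- hearts 2767, 2770 and 3200 and 14.14, 14.28 and 14.35 in *Col1a2*+/- hearts 2769, 3201 and 3294. The lowest *Col1a2*-/- and the highest *Col1a2*+/- heart were level at 14.35, and the log2 difference was 0.15 (95% interval -0.20 to 0.50). *Tln2*, the talin gene more typical of muscle, had -0.04, and *Fermt2*, which encodes kindlin-2, had 0.05. *Vcl*, the gene of vinculin, which ties talin to actin, had 0.13 (95% interval -0.23 to 0.49).

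The adaptor complex of *Ilk*, *Lims1* and *Parva*, which encode integrin-linked kinase, PINCH-1 and α-parvin, had differences of -0.03, 0.09 and 0.17. *Parva* had 10.22, 10.29 and 10.13 in *Col1a2*-/- hearts and 10.11, 9.77 and 10.24 in *Col1a2*+/- hearts 2769, 3201 and 3294. Its *Col1a2*-/- hearts lay together at the upper end of the range of the *Col1a2*+/- hearts, and the 95% interval of the difference was -0.23 to 0.57. The difference was 0.03 without *Col1a2*+/- heart 3201 and 0.27 without *Col1a2*+/- heart 3294. *Lims1* was lowest in heart 3294, at 14.21 where the rest lay between 14.53 and 14.67. Its *Col1a2*-/- mean of 14.60 lay below *Col1a2*+/- hearts 2769 and 3201, at 14.66 and 14.67, so the sign rests on heart 3294. The signaling adaptor genes *Pxn* (paxillin) and *Bcar1* (p130Cas) had differences of 0.13 and 0.17. *Bcar1* reached a log2 signal of 10.48 in *Col1a2*-/- heart 2770, while the other hearts lay between 9.35 and 9.78, and it differed by 0.59 within the first series and by -0.40 within the second. *Zyx*, the gene of zyxin on actin bundles under tension, had -0.06, *Tns1*, which encodes tensin-1, had -0.01 and *Itgb1bp2*, the gene of the muscle protein melusin that binds the β1 tail, had -0.01. The 95% intervals of these 3 lay between -0.46 and 0.34.

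In 6 of the 32 members the genotypes had no overlap between hearts, against 10.6% of all probe sets. *Col1a2*-/- hearts were the higher ones in 4 and the lower ones in 2, against 5.13% and 5.47%. The count includes *Tln1*, whose nearest hearts were level to 4 decimals, and it was 5 after quantile normalization. Without *Col1a2*+/- heart 3294 the count was 10, against 20.2% of all probe sets, and 1 member passed as higher and 0 as lower (2.58% and 2.77% of all probe sets). With the series as a block the same counts were 1 and 0, against 5.14% of all probe sets in either direction. The difference had the same sign in both series of animal numbers for 11 of the 32 members (34.4%), against 52.2% of all probe sets, and the median of the members was 0.10 in the first and -0.03 in the second. Among single hearts, *Col1a2*-/- heart 2767 had the highest signal for 12 members and *Col1a2*-/- heart 3200 the lowest for 10. Over all probe sets these hearts were highest in 18.4% and lowest in 16.3%. Between the series themselves, with genotype in the model, 0 of 32 members passed an unadjusted p under 0.05 from limma, against 6.33% of all probe sets (3.12% higher and 3.21% lower in the second series).

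Outside the members, genes of the same pathway were counted from fixed lists. At an unadjusted p under 0.05, 2.67% of all probe sets were higher and 2.79% lower. Of 25 measured ligands of these receptors, 1 passed an unadjusted p under 0.05, as higher, and 24 did not pass, with a median log2 difference of 0.11. This was *Nid2*, which encodes a basement membrane protein, with a log2 difference of 0.59 (SE 0.19, adjusted p = 0.879 from limma), and 0.95 and 0.21 within the series. It missed the limit of 0.05 without *Col1a2*+/- heart 2769 (0.48, unadjusted p = 0.0530 from limma) or *Col1a2*-/- heart 2770 (0.52, unadjusted p = 0.0501 from limma). *Lama2*, the laminin chain that dystroglycan binds in muscle, had 0.02 (95% interval -0.32 to 0.36) and was named after its values were seen. Of 10 other integrin chains, none passed, and 6 of them lay under the dim limit. Of 14 other genes of the dystroglycan complex and its glycosylation, 1 was lower and 13 did not pass. It was *Pomt1*, which encodes a mannosyltransferase that starts the sugar chain by which dystroglycan binds laminin. It measured 9.12, 9.02 and 9.48 on the log2 scale in *Col1a2*-/- hearts 2767, 2770 and 3200 and 9.78, 9.62 and 9.74 in *Col1a2*+/- hearts 2769, 3201 and 3294, a difference of -0.50 (SE 0.18, unadjusted p = 0.0189, adjusted p = 0.879 from limma). All *Col1a2*-/- hearts were below all *Col1a2*+/- hearts. Without *Col1a2*+/- heart 2769 or *Col1a2*-/- heart 2767 or 2770 it was -0.47, -0.46 and -0.41 (unadjusted p = 0.0535, 0.0563 and 0.0718 from limma).

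Of 42 other adhesion adaptor and kinase genes, 2 passed as higher, none as lower and 40 did not pass, with a median log2 difference of 0.12. Over all probe sets, 2.67% passed as higher and 2.79% as lower. *Flna* encodes filamin A, which crosslinks actin and binds integrin β tails in competition with talin. Its log2 signal was 12.23, 11.98 and 11.996 in *Col1a2*-/- hearts 2767, 2770 and 3200 and 11.58, 11.48 and 11.39 in *Col1a2*+/- hearts 2769, 3201 and 3294. The genotypes were 0.40 apart at the nearest, and the spread within each was smaller than that. The difference was 0.58 (SE 0.16, unadjusted p = 0.00531, adjusted p = 0.870 from limma), and 0.52 and 0.56 within the series. *Apbb1ip* encodes RIAM, which brings talin to integrins and is best known from leukocytes. It had 8.49, 8.43 and 8.36 in *Col1a2*-/- hearts and 8.10, 8.08 and 7.56 in *Col1a2*+/- hearts 2769, 3201 and 3294, a log2 difference of 0.51, which was 0.33 without heart 3294 (unadjusted p = 0.0764 from limma). Without *Col1a2*-/- heart 2767 or 2770 it was 0.48 and 0.51 (unadjusted p = 0.0648 and 0.0550 from limma). The summed log2 level of 9 leukocyte markers was 13.99 to 14.11 in *Col1a2*-/- and 13.63 to 13.94 in *Col1a2*+/- hearts, with 1 of the 9 higher, 1 lower and 7 that did not pass, and their part in the value of *Apbb1ip* was not tested. The T cell marker *Cd3e* and the B cell marker *Cd79a* were under the dim limit.

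The list of the response to mechanical load holds responsive genes and regulators such as *Srf* and *Yap1*. Of its 16 genes, 2 passed as higher, 1 as lower and 13 did not, with a median log2 difference of 0.08. Over all probe sets, 2.67% passed as higher and 2.79% as lower. *Ankrd1*, which encodes a stretch-responsive repressor bound to titin, had 17.47, 17.90 and 17.97 in *Col1a2*-/- hearts 2767, 2770 and 3200 and 17.12, 17.46 and 17.05 in *Col1a2*+/- hearts 2769, 3201 and 3294. Its difference was 0.57 (SE 0.20, adjusted p = 0.879 from limma), and the nearest hearts were 0.01 apart. Without *Col1a2*+/- heart 2769 or 3294 or *Col1a2*-/- heart 2770 or 3200 it was 0.47 to 0.52 (unadjusted p = 0.0544 to 0.0687 from limma). *Xirp2*, the gene of an actin-binding protein of intercalated discs, had a difference of 0.88, which was 0.45 without heart 3294 (unadjusted p = 0.0751 from limma), 0.83 without *Col1a2*-/- heart 2770 and 0.77 without *Col1a2*-/- heart 3200 (unadjusted p = 0.0754 and 0.0871 from limma). *Amotl2*, a junction protein gene, had a difference of -0.38, which was -0.27 without heart 3294 (unadjusted p = 0.139 from limma). It passed the limit in 1 of the 6 fits with a heart left out, that without *Col1a2*+/- heart 3201.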

How the data were processed

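Total RNA of 6 hearts, 3 per genotype, had been hybridized to Affymetrix Clariom S Mouse arrays. The values the authors deposited are normalized log2 signals, 1 per probe set and array. Affymetrix Expression Console is named in the submitters' processing notes, and Transcriptome Analysis Console in the methods. Versions and the normalization are not given in the sources used here. The signals were used without further normalization, and genotypes were taken from the sample titles.

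Of 28846 entries, 6640 controls were left out and 22206 probe sets were tested. Symbols came from a table of GEO's platform annotation, in which 2634 of these have none. The brightest probe set by the mean of 6 arrays stands for a gene. The dim limit is the 95th percentile of the means of 1465 chemoreceptor probe sets. A model of genotype alone, with 4 residual degrees of freedom, was fitted in limma 3.58.1 (lmFit, eBayes; R 4.3.3), and Benjamini-Hochberg adjustment ran over every probe set tested. No test of gene sets was made. The members and lists were chosen with earlier results of these data known. Members with an unadjusted p under 0.05, hearts that did not overlap, a log2 difference of at least 0.3 in size or the 2 smallest p-values of their role group are given per heart. Up to 4 genes per pathway list with the smallest unadjusted p under 0.05 are named.

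Alternatives were quantile normalization, median centring, a filter on dim probe sets, a trended robust prior, Student's t-test of each probe set without moderation (which the methods name for pairs of groups in general, not for the arrays), array weights, the animal-number series as a block, the mean of all probe sets of a gene and leaving out each heart. The code was tested on simulated data. Promoter windows came from RefSeq and matched 24 of 32 members. The number of arrays limits the precision. Figures were drawn with matplotlib 3.10.9.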

Additional observations from a re-analysis of the deposited data

How the results depend on the processing

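No member passed an adjusted p under 0.05 under any of the 14 alternatives. With the series as a block, the members past an unadjusted p of 0.05 numbered 1 higher and 0 lower. Leaving out each heart gave 1 to 2 higher and 0 to 1 lower, and 7 to 10 members whose hearts did not overlap, where fewer hearts alone raise the count. Shares over all probe sets were taken only for the fit without *Col1a2*+/- heart 3294, with 2.58% higher, 2.77% lower and 20.2% without overlap. Leaving out each heart gave medians of 0.072 to 0.15 for the integrin α chains, of -0.044 to 0.13 for the integrin β chains and of -0.058 to 0.064 for the dystrophin-glycoprotein complex. The difference between the series passed for 1 member with a trended robust prior and for 0 to 1 with each heart left out. The log2 difference of *Itgb6* was -0.011 to 0.31 with each heart left out, and no other gene named by the rule changed sign. Members outside the rule were not followed in those fits. With the series as a block, the difference changed sign for *Itga4*, *Itga5* and *Itga7* (-0.003, -0.002 and -0.002). It also did for *Itgb5* and *Dmd* (0.04 and 0.12). For *Col1a2* Student's t-test gave an adjusted p of 0.547. *Flna* had an unadjusted p under 0.05 under all 14 alternatives. The other 6 non-member genes named by the rule lost it under 1 or more of them. *Apbb1ip*, *Xirp2* and *Amotl2* lost it with the series as a block. Their differences there were 0.45, 0.86 and -0.38 (unadjusted p = 0.0561, 0.0547 and 0.0748 from limma). *Nid2*, *Ankrd1* and *Pomt1* kept it in that fit. Student's t-test gave *Itga6* an unadjusted p of 0.0802 and *Xirp2* one of 0.132. No paired analysis was possible because the animal numbers are not shared between the genotypes. The causes were not tested.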
